A study of Mus musculus with 9 samples.

Results

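Immediate early genes are the genes a cell switches on first after a signal, without needing new protein synthesis. Growth factors, stress and mechanical handling act on them through MAP kinases and through factors that already sit on their promoters, such as SRF with its ETS partners and CREB. Many of their products are transcription factors, and others are feedback regulators that shut the response down by removing phosphate from MAP kinases or by destroying the mRNAs. The Fos and Jun genes, which form the factor AP-1, are the best known members. The 10 genes described here are immediate early genes outside AP-1: the transcription factor genes *Egr1*, *Egr2*, *Atf3*, *Klf6* and *Myc*, the feedback regulators *Dusp1*, *Zfp36* and *Btg2*, and *Ier2* and *Ier3*. They were chosen by name, as the rows whose gene symbol equals 1 of these 10, among the 56691 genes of each table. Each symbol was found once in every library, and all 10 passed the filter on low counts that left 16903 genes to test.

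RNA was sequenced from mouse embryoid bodies, the aggregates in which pluripotent stem cells (PSCs) differentiate. The PSC line BVSC carries 2 reporters, Blimp1-mVenus (BV) and Stella-CFP (SC), and cells were dissociated and sorted by flow cytometry into BV+ cells, taken by the study as primordial germ cell-like cells, and BV- cells, taken as somatic cells. In NRF1 OE cells the doxycycline-inducible vector p20, a modified pInducer20, carried *Nrf1* cDNA, and in Ctrl cells the vector was empty. Both received doxycycline at 1.5 μg/mL from day 2 to day 5 of differentiation. There were 9 libraries of poly(A) RNA: 2 of BV+ NRF1 OE, 2 of BV+ Ctrl, 3 of BV- NRF1 OE and 2 of BV- Ctrl. All come from 1 reporter line. The study names its RNA-seq replicates as biological, but the labels do not say whether they were separate cultures. The p-values therefore measure the spread between these libraries, part of which may be technical.

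Total counts per library ran from 13702162 to 19625460, with a median of 17443624. *Nrf1*, the gene whose cDNA the NRF1 OE vector carries, had 95.7 and 99.4 CPM (counts relative to library size, scaled by edgeR's TMM factors as all CPM here) in BV+ NRF1 OE against 91.1 and 90.4 in BV+ Ctrl, and 119, 122 and 126 in BV- NRF1 OE against 99.1 and 105 in BV- Ctrl. Its log2 fold change of 0.10 (SE 0.10) in BV+ cells and 0.26 (SE 0.095) in BV- cells did not pass the test (edgeR adjusted p = 0.489 and 0.0718). Overexpression of *Nrf1* is therefore not shown by these RNA levels in either sort, and NRF1 OE and Ctrl name the vector labels of the libraries throughout. The sort was checked with 8 markers of primordial germ cells. *Prdm1*, which encodes Blimp1, the protein behind the BV reporter, had log2 fold changes of 0.05 and 0.00074 between BV+ and BV- cells with Ctrl and with NRF1 OE. In Ctrl cells 0 of the 8 markers differed between BV+ and BV- by the edgeR test, and in NRF1 OE cells *Itgb3* was higher while *Dppa3*, *Nanos3* and *Tfap2c* were lower in BV+ cells. The summed CPM of the 8 genes was 370 to 410 in BV+ libraries and 387 to 547 in BV- libraries, so these RNA levels do not mark the BV+ libraries as richer in germ cell transcripts. The groups are therefore named by their sort label alone.

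The promoters of 3 feedback regulators are shown because together they hold all 3 motifs of the immediate early response that were found in these members: the cAMP response element (CRE, bound by CREB and ATF proteins), the CArG box (bound by SRF) and the EGR site (bound by the products of *Egr1* and *Egr2*). Each is the 250 bases before a transcription start in RefSeq on GRCm38.p6, read 5′ to 3′ on the gene's strand. Capitals mark the CRE and the EGR site in *Btg2*, the EGR site and the CArG box in *Zfp36* (in that order), and the CRE in *Dusp1*. The windows lie at chr7:28379229-28379478 (minus strand), chr1:134079156-134079405 (minus strand) and chr17:26508473-26508722 (minus strand), in the order printed.
Zfp36: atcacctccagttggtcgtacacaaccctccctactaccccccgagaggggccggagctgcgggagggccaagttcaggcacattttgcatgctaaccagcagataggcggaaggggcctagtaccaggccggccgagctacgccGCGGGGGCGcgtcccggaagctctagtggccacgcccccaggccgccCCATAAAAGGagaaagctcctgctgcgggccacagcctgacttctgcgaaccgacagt
Btg2: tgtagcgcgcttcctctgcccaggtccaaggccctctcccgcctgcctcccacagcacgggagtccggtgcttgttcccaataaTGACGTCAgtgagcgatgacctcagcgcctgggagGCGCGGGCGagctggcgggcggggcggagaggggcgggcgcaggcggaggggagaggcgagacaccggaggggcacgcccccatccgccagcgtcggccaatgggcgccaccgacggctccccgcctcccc
Dusp1: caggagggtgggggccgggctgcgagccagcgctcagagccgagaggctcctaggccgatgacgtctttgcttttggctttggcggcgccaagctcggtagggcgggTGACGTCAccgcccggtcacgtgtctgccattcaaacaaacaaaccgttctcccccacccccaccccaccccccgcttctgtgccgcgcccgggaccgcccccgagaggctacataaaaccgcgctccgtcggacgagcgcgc
In *Zfp36* the EGR site spans bases -105 to -97 and the CArG box bases -58 to -49 from the start. In *Btg2* the CRE spans bases -166 to -159 and the EGR site bases -131 to -123, and in *Dusp1* the CRE spans bases -143 to -136.

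Of the 10 genes, 7 had a RefSeq promoter window in this search. *Egr1*, *Ier2* and *Myc* were not searched, and the motif counts leave them out. Motifs were searched as exact letters on both strands. The 7 genes have 11 windows, and a gene was counted if any of its windows held the motif. The share of all promoters is per window, so the 2 rates are not alike for a gene with several windows. The CRE (TGACGTCA) was found in 2 of the 7 members (*Btg2* and *Dusp1*) and in 1.55% of all 32817 promoters of this length. Its looser form TGACGTNA, which includes the CRE, was also found in *Atf3*, at bases -10 to -3, and in 2.52% of all promoters. The CArG box was found in *Zfp36* and *Egr2* against 1.47% of all promoters, and the EGR site (GCGNGGGCG) in *Zfp36* and *Btg2* against 4.7%. NRF1's own palindromic site and its shorter core (GCATGCGC), which the full site contains, were found in 0 of the 7, against 0.777% and 2.25% of all promoters. The AP-1 site (TGANTCA, 6.75% of all promoters) and the ETS site (CCGGAAGT, 2.88%) were also found in 0 of the 7. A match of letters is a description of the window, not of binding.

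Levels can be compared between genes only per length, for which the deposited FPKM (fragments relative to gene length and library size) was used. In BV+ NRF1 OE cells *Ier2* stood at 111 FPKM ± 17.7 (SD, n = 2), followed by *Egr1* at 22.8 ± 4.82, *Btg2* at 22.1 ± 1.06, *Klf6* at 15.7 ± 1.21, *Dusp1* at 14.8 ± 0.990 and *Zfp36* at 10.8 ± 1.95. *Myc* at 6.01 ± 0.198 and *Ier3* at 4.38 ± 0.113 came next, and *Atf3* at 1.58 ± 0.438 and *Egr2* at 0.33 ± 0.099 were the lowest. *Egr1* and *Btg2* lay within their spread of each other, as did *Klf6* and *Dusp1*. In BV- Ctrl cells *Ier2* was again first, at 81.6 ± 2.26 (n = 2), but *Klf6* came second at 15.6 ± 1.38, ahead of *Egr1* at 12.5 ± 1.81, and *Zfp36* at 2.70 ± 0.389 lay below *Myc* at 7.48 ± 0.149. *Egr2* rested on 8 to 28 counts and *Atf3* on 19 to 80 counts per library, so their values carry the largest counting error, while *Ier2* had 1654 to 3701 counts.

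**Figure D1:**
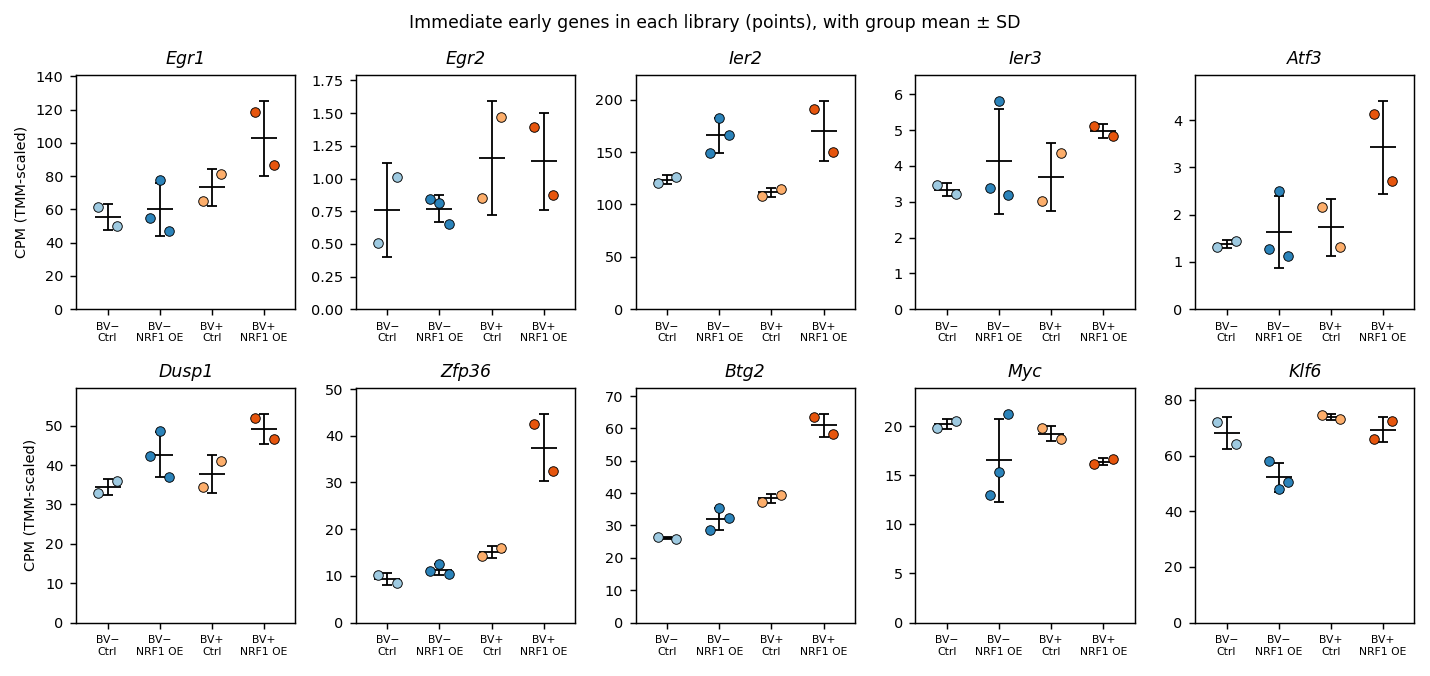
Level of each of the 10 immediate early genes in TMM-scaled CPM (vertical axes, each from 0) by group; points are libraries, and the horizontal bar with whiskers is the mean ± SD. *Zfp36* and *Btg2* in the 2 BV+ NRF1 OE libraries lie above all 7 other libraries, and *Klf6* is lowest in the 3 BV- NRF1 OE libraries.

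The first question was how the BV+ libraries labelled NRF1 OE differed from those labelled Ctrl. *Zfp36*, *Btg2* and *Ier2* rose, by 1.31, 0.67 and 0.61 on the log2 scale, and no member was called lower. Thus 3 of the 10 members passed edgeR's quasi-likelihood test at a Benjamini-Hochberg adjusted p under 0.05, where 8.02% of all tested genes did and 6.24% were higher. By the study's threshold, an unadjusted p under 0.05 and a log2 fold change beyond 0.58, *Atf3* joined them, making 4 of 10 against 17% of all genes. The members' median log2 fold change was 0.45, from -0.23 to 1.31, and that of all tested genes 0.04. The 2 NRF1 OE libraries lay above the 2 Ctrl libraries for 7 members and below them for 2, while 38.1% and 32% of all genes were separated in these directions. Of all tested genes 1054 were higher and 301 lower, and upper-quartile scaling gave 775 and 513. Without BV+ NRF1 OE replicate 1, BV+ Ctrl replicate 1 or BV+ Ctrl replicate 2, a group held 1 library and no call was kept. *Zfp36* was then at 1.098, 1.225 and 1.397 on the log2 scale. Without BV- NRF1 OE replicate 2, which is in neither group, 6 members were called. That setting called 4957 of all genes, against 1355 with all libraries.

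In the BV- libraries labelled NRF1 OE *Ier2* rose by 0.42 and *Klf6* fell by 0.39 on the log2 scale against Ctrl, and both calls were lost with offsets for GC content and length. These were 2 of 10 members against 17.2% of all genes (10.2% higher, 6.98% lower), so the members' share is near the background. By the study's threshold 0 of 10 passed, against 16% of all genes, and 3 members had an unadjusted edgeR p under 0.05, against 39.1% of all genes. The NRF1 OE libraries lay above the Ctrl libraries for 4 members and below them for 1, against 29.4% and 27.6% of all genes. The median of the members was 0.25, from -0.39 to 0.42, and that of all genes 0.01. Over all genes 1731 were higher and 1179 lower, and with scaling by library size alone 1418 and 1723. Without BV- NRF1 OE replicate 3, 0 members were called, without replicate 2, 1, and without replicate 1, 3. These settings called 35, 2460 and 5847 of all genes, against 2910 with all libraries. Without any of the 4 Ctrl libraries a group held 1 library, and neither call was kept. When any 1 library was left out, *Ier2* ran from 0.32 to 0.50 and *Klf6* from -0.48 to -0.30 on the log2 scale.

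BV+ and BV- cells were compared within each vector. With NRF1 OE, *Zfp36*, *Btg2*, *Egr1* and *Klf6* were higher in BV+ cells, by 1.73, 0.93, 0.78 and 0.41 on the log2 scale, which is 4 of 10 members against 13.8% of all genes (9.9% higher). By the study's threshold *Atf3* replaced *Klf6*, again 4 of 10, against 14.7%. Without BV- NRF1 OE replicate 3, 2 members were called, in a setting that called 1514 of all genes against 2325 with all libraries. Without BV+ NRF1 OE replicate 1 a group held 1 library, and *Egr1* and *Klf6* were at 0.53 and 0.48. With Ctrl, 0 of 10 members passed the edgeR test, against 1.12% of all genes. There *Zfp36* and *Btg2* had an unadjusted p under 0.05, as 7.77% of all genes did. DESeq2 called 0 members on all libraries and 2 on the 4 Ctrl libraries alone, and *Zfp36* alone passed the study's threshold, against 5.74% of all genes. Without BV- NRF1 OE replicate 2, 2 members were called, in a setting that called 484 of all genes against 190 with all libraries. The members' median was 0.49 with NRF1 OE and 0.23 with Ctrl, and that of all genes -0.0049 and -0.0098.

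Whether the difference between the vector labels differed between BV+ and BV- cells was tested as an interaction. None of the 10 members passed, and none of the 16903 genes did with edgeR (0%), at 1 member and 5.51% of all genes with an unadjusted p under 0.05. DESeq2 on all libraries called 0 members and 23 genes. The member with an unadjusted p under 0.05 was *Zfp36*, whose change in BV+ cells exceeded that in BV- cells by 1.02 on the log2 scale (95% interval 0.48 to 1.55, edgeR adjusted p = 0.497). It was also the single member past the study's threshold, with 4.48% of all genes. A difference in response between the sorts was thus not shown for any member. In bulk libraries fewer cells expressing a gene and less RNA per cell cannot be told apart. The BV+ comparison and both sort comparisons share libraries, so their values are given side by side and not as independent evidence.

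**Figure D2:**
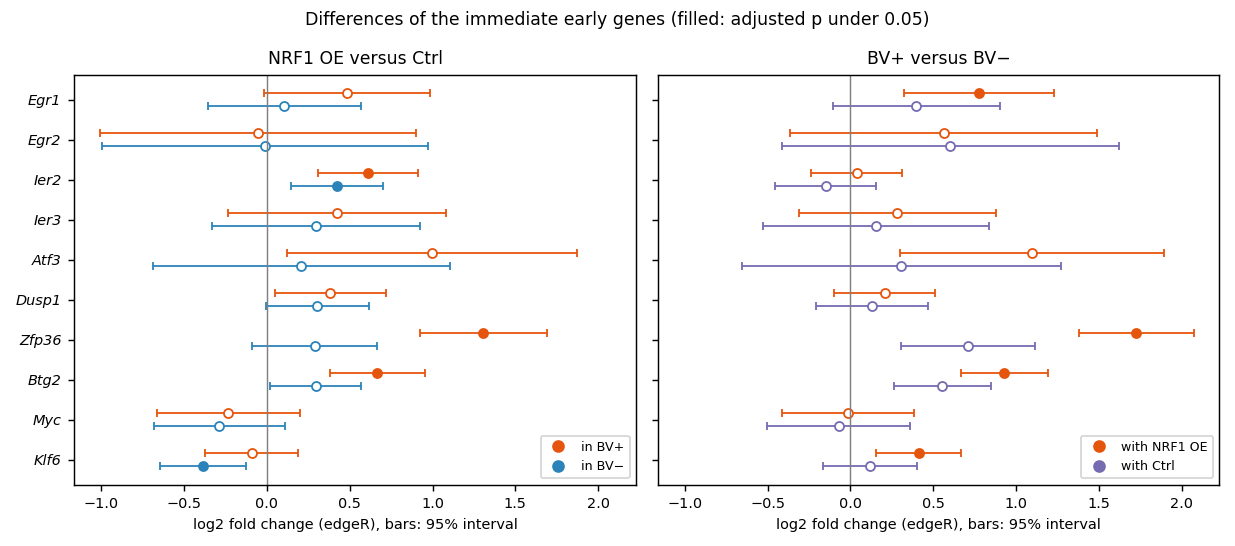
Log2 fold change of each member (horizontal axis) with its 95% interval from edgeR, comparing the vectors within BV+ and within BV- cells (left) and for BV+ versus BV- with NRF1 OE and with Ctrl (right); filled points have an adjusted p under 0.05. *Zfp36* is farthest to the right in both BV+ NRF1 OE comparisons, at 1.31 and 1.73, and the interval of *Egr2* spans 0 throughout.

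*Zfp36* encodes tristetraprolin, which binds AU-rich elements in mRNAs and directs their decay, its own among them. Its level was 42.6 and 32.4 CPM in BV+ NRF1 OE, 14.2 and 16.1 in BV+ Ctrl, 11.1, 12.6 and 10.4 in BV- NRF1 OE, and 10.2 and 8.39 in BV- Ctrl. Both BV+ NRF1 OE libraries were far above all others, both BV+ Ctrl libraries above every BV- library, and the BV- groups did not overlap but came close, at 10.4 and 10.2 CPM. In BV+ cells it rose 2.47-fold (log2 1.31, SE 0.18, edgeR adjusted p = 0.0107), and this was 1.10 to 1.49 on the log2 scale when any 1 library was left out. In BV- cells the log2 fold change was 0.29 (adjusted p = 0.235). BV+ exceeded BV- cells 3.31-fold with NRF1 OE (adjusted p = 3.12e-05), and by 0.71 on the log2 scale with Ctrl, which did not pass (adjusted p = 0.125). In the GENCODE M21 annotation of GRCm38, 125 exon bases of *Zfp36* are shared with *Gm44710* on the opposite strand, and the strand setting of the counting is not given in the sources used here, so reads there cannot be told apart.

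*Btg2* encodes an antiproliferative protein that recruits the deadenylase that shortens mRNA tails, and it is also a target of p53. It had 63.4 and 58.4 CPM in BV+ NRF1 OE, 37.3 and 39.4 in BV+ Ctrl, 28.5, 35.3 and 32.3 in BV- NRF1 OE, and 26.4 and 25.8 in BV- Ctrl. The 4 groups did not overlap, and their order was the same as for *Zfp36*. *Btg2* rose 1.59-fold with NRF1 OE in BV+ cells (log2 0.67, SE 0.13, edgeR adjusted p = 0.0208), with a log2 fold change of 0.29 in BV- cells (adjusted p = 0.105). BV+ exceeded BV- cells by 0.93 on the log2 scale with NRF1 OE (adjusted p = 0.000341). With Ctrl the log2 fold change was 0.56 (adjusted p = 0.0933). Across the 9 libraries the log2 CPM of *Btg2* and *Zfp36* had a Pearson r of 0.978, the highest of the 45 pairs of members, whose r ran from -0.69 with a median of 0.41. These libraries share group differences, and r is given as a description.

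*Dusp1* encodes the phosphatase that inactivates ERK, p38 and JNK kinases. Its level was 51.9 and 46.5 CPM in BV+ NRF1 OE against 34.3 and 41.1 in BV+ Ctrl, and 42.2, 48.6 and 37.1 in BV- NRF1 OE against 33.0 and 35.9 in BV- Ctrl. In both sorts the NRF1 OE libraries lay above the Ctrl libraries, but the log2 fold changes of 0.38 and 0.30 did not pass the test (edgeR adjusted p = 0.117 and 0.135). BV+ and BV- libraries overlapped with either vector. *Dusp1* shares 11 exon bases with *Ergic1* on the opposite strand in the same annotation.

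*Egr1* encodes a zinc finger factor that SRF and its ETS partners switch on. It had 119 and 86.5 CPM in BV+ NRF1 OE, 65.3 and 81.2 in BV+ Ctrl, 54.9, 77.9 and 47.0 in BV- NRF1 OE, and 61.2 and 50.2 in BV- Ctrl. The 2 BV+ NRF1 OE libraries were the highest of the 9, BV+ Ctrl replicate 2 came next, and BV- NRF1 OE replicate 2 stood above the other BV- libraries. The log2 fold change with NRF1 OE was 0.48 in BV+ cells (95% interval -0.016 to 0.98, edgeR adjusted p = 0.164) and 0.11 in BV- cells (adjusted p = 0.741). With NRF1 OE it was 1.71-fold higher in BV+ than in BV- cells (adjusted p = 0.0289), a call lost without BV+ NRF1 OE replicate 1 (log2 0.53, adjusted p = 0.261), BV- NRF1 OE replicate 1 (0.72, adjusted p = 0.0618) or BV- NRF1 OE replicate 3 (0.63, adjusted p = 0.0999), and with only the 2 groups compared (0.81, adjusted p = 0.0563). With Ctrl the log2 fold change was 0.40 (adjusted p = 0.796). *Egr2*, its relative known from hindbrain and myelinating cells, was near the limit of detection, at 1.39 and 0.871 CPM in BV+ NRF1 OE, 0.852 and 1.47 in BV+ Ctrl, 0.843, 0.810 and 0.652 in BV- NRF1 OE, and 0.504 and 1.02 in BV- Ctrl. NRF1 OE and Ctrl libraries overlapped in both sorts, and the 95% intervals, -1.01 to 0.90 in BV+ and -0.997 to 0.975 in BV- cells, span 0, so a change of *Egr2* was not detectable at this depth.

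*Atf3* encodes a stress-induced factor of the ATF/CREB family. Its level was 4.12 and 2.72 CPM in BV+ NRF1 OE, 2.16 and 1.31 in BV+ Ctrl, 1.26, 2.51 and 1.13 in BV- NRF1 OE, and 1.32 and 1.44 in BV- Ctrl. The BV+ NRF1 OE libraries were the highest of the 9, and BV- NRF1 OE replicate 2 came next. In BV+ cells the log2 fold change of 1.00 (SE 0.40) passed the study's threshold but not the adjusted test (edgeR adjusted p = 0.117). The same held between BV+ and BV- cells with NRF1 OE, at 1.10 (adjusted p = 0.0694).

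*Klf6*, a Krüppel-like zinc finger factor, and *Myc*, the growth-promoting factor, did not follow the other members. *Klf6* had 66.1 and 72.6 CPM in BV+ NRF1 OE, 74.6 and 73.1 in BV+ Ctrl, 57.9, 48.0 and 50.4 in BV- NRF1 OE, and 72.2 and 64.1 in BV- Ctrl. The 3 BV- NRF1 OE libraries were below all others. *Klf6* fell with NRF1 OE in BV- cells (log2 -0.39, SE 0.12, edgeR adjusted p = 0.0458) and its log2 fold change in BV+ cells was -0.09 (adjusted p = 0.634). The fall in BV- cells turned to 0.025 with offsets for GC content and length (adjusted p = 0.886), and its call was lost when any 1 library was left out other than BV- NRF1 OE replicates 1 and 2 (adjusted p from 0.0542 to 0.347). With NRF1 OE it was higher in BV+ cells (log2 0.41, adjusted p = 0.039), a call lost with the offsets (0.18, adjusted p = 0.155) and without any 1 library other than BV- NRF1 OE replicates 1 and 2 (adjusted p from 0.0511 to 0.195). *Myc* had 16.1 and 16.7 CPM in BV+ NRF1 OE, 19.8 and 18.7 in BV+ Ctrl, 13.0, 15.3 and 21.3 in BV- NRF1 OE, and 19.9 and 20.6 in BV- Ctrl. Its BV- NRF1 OE libraries spanned the range of all 9 libraries, and no comparison passed (log2 -0.23 in BV+ cells with 95% interval -0.67 to 0.20, and -0.29 in BV- cells with -0.68 to 0.11). With the offsets for GC content and length *Myc* was at -0.48 in BV+ and -0.57 in BV- cells, and neither passed (edgeR adjusted p = 0.0871 and 0.0553).

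*Ier2* encodes a small nuclear protein of the immediate early response. Its level was 191 and 150 CPM in BV+ NRF1 OE, 108 and 115 in BV+ Ctrl, 149, 182 and 167 in BV- NRF1 OE, and 121 and 127 in BV- Ctrl. All 5 NRF1 OE libraries lay above all 4 Ctrl libraries, whichever the sort. It rose 1.53-fold in BV+ cells (log2 0.61, SE 0.14, edgeR adjusted p = 0.0312) and 1.34-fold in BV- cells (log2 0.42, SE 0.13, adjusted p = 0.0451). With offsets for GC content and length neither call was kept, at 0.13 in BV+ cells (adjusted p = 0.258) and -0.06 in BV- cells (adjusted p = 0.636). The BV+ call was also lost without either BV+ Ctrl library, BV+ NRF1 OE replicate 1, BV- NRF1 OE replicate 3 or BV- Ctrl replicate 1 (adjusted p from 0.0546 to 0.305), and the BV- call without any of the 4 Ctrl libraries or BV- NRF1 OE replicates 2 and 3 (adjusted p from 0.0698 to 0.315). Between BV+ and BV- cells the log2 fold change was 0.04 (95% interval -0.24 to 0.31) with NRF1 OE and -0.15 (-0.45 to 0.15) with Ctrl, and neither passed. *Ier3*, whose product acts on survival signalling, had 5.10 and 4.84 CPM in BV+ NRF1 OE, 3.01 and 4.35 in BV+ Ctrl, 3.37, 5.82 and 3.20 in BV- NRF1 OE, and 3.47 and 3.20 in BV- Ctrl. BV- NRF1 OE replicate 2 was the highest of all, and no comparison of *Ier3* passed (log2 0.42 in BV+ cells, edgeR adjusted p = 0.334, and 0.29 in BV- cells, adjusted p = 0.47).

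A trend of the libraries with GC content moved with the vector, and whether it is technical was not tested. Across 16662 genes, Spearman's rho between a gene's GC content and its deviation from its mean over the libraries was -0.505 to -0.398 in the 4 Ctrl libraries and 0.0237 to 0.621 in the 5 NRF1 OE libraries. *Ier2* is among the most GC-rich genes tested, at 60.9% GC (percentile 97.2), and *Klf6* is poor in GC, at 42.4% (percentile 13.9), while *Btg2* at 49.7% lies at the median of all genes, 49.8%, and *Zfp36* is at 54.1%. With offsets that remove the trend with GC content and length from each library, the calls of *Ier2* in both sorts and of *Klf6* in BV- cells were lost, with the values given above, and 0 members were called in BV- cells. *Zfp36* at 1.04 (edgeR adjusted p = 0.00288) and *Btg2* at 0.61 (adjusted p = 0.00677) stayed called in BV+ cells. With NRF1 OE the BV+ versus BV- difference of *Atf3* passed at 1.16 (adjusted p = 0.0212), and with Ctrl *Zfp36* and *Btg2* passed at 0.71 and 0.56 (adjusted p = 0.043 and 0.0229). Library GC content and the vector cannot be told apart in this design, since no Ctrl library had a positive rho and no NRF1 OE library a negative one.

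**Figure D3:**
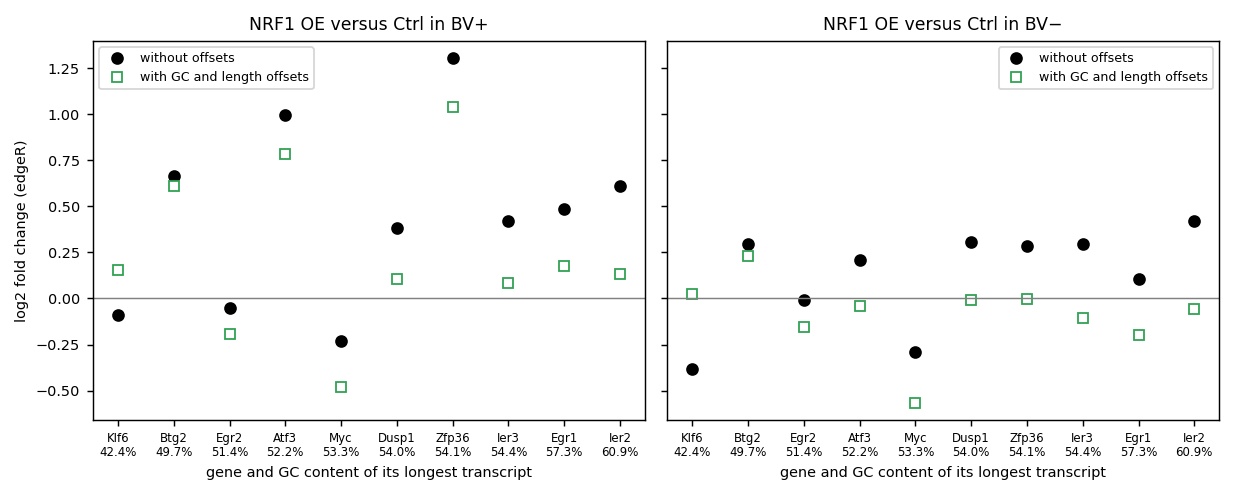
Log2 fold change of each member with NRF1 OE (vertical axis) without and with offsets for GC content and length, in BV+ (left) and BV- cells (right); genes are ordered by the GC content of their longest transcript, printed under each name. In BV+ cells *Zfp36* and *Btg2* keep 1.04 and 0.61 with the offsets, while *Ier2* goes from 0.61 to 0.13, and in BV- cells *Ier2* and *Klf6* go to -0.06 and 0.025.

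Markers of another cell type moved with the BV+ groups too. The summed CPM of 8 mesenchyme markers, such as the collagen genes *Col1a1*, *Col1a2* and *Col3a1* and the smooth muscle actin gene *Acta2*, was 1216 and 725 in BV+ NRF1 OE, 214 and 209 in BV+ Ctrl, 78.7 to 113 in BV- NRF1 OE, and 53.5 and 66.0 in BV- Ctrl. This is the order of the groups seen for *Zfp36* and *Btg2*. Most of the sum in BV+ NRF1 OE came from *Col1a2* (602 and 368 CPM) and *Acta2* (506 and 270 CPM). *Pdgfra* did not follow that order, at 3.71 and 2.94 CPM in BV+ NRF1 OE and 7.88 and 7.85 in BV- Ctrl. Of the 7 tested, 5 rose and *Pdgfra* fell with NRF1 OE in BV+ cells, and *Lum*, which was too low to test, was at 0 in 6 of the 9 libraries. Of 6 markers of endothelium and blood (4 tested), *Kdr* and *Cdh5* also rose in BV+ cells. *Pecam1* overlapped, at 100 and 145 CPM in BV+ NRF1 OE and 151 and 139 in BV+ Ctrl. The summed CPM of these 6 overlapped too, at 134 and 168 against 161 and 150. In BV+ cells 0 of 6 endoderm and 0 of 4 neuroectoderm markers (3 tested) rose, and of 7 naive pluripotency markers *Zfp42* fell. Of the 8 primordial germ cell markers 2 were higher with NRF1 OE in BV+ cells (median log2 fold change 0.27), where 8.02% of all genes were called. In BV- cells 5 of the 8 were higher (median 0.45), where 17.2% were called. The part of any of these cell types in the levels of *Zfp36* and *Btg2* was not tested. Because cell dissociation and sorting can induce immediate early and heat shock genes, 12 heat shock genes were read beside the members. In BV+ cells 0 of 12 were called between NRF1 OE and Ctrl, and their summed CPM was 10890 to 13090 over all libraries, lowest in BV+ NRF1 OE replicate 1 and highest in BV- Ctrl replicate 1. In BV- cells 3 rose and 2 fell, *Hspb1* by 0.48 and *Hsph1* by -0.54 among them, which is 5 of 12 against 17.2% of all genes. With the GC and length offsets 1 of 12 was called there, against 916 of 16662 genes. Between sorts with NRF1 OE, *Hspb1*, *Dnajb1* and *Hspa1b* were lower in BV+ cells (log2 -0.63, -0.37 and -0.64, edgeR adjusted p = 0.00193, 0.0333 and 0.0371), 3 of 12 against 13.8% of all genes, and with Ctrl 0 of 12 were called against 1.12%. *Hspa1b* has a near-identical copy, *Hspa1a*, so its counts are uncertain.

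**Figure D4:**
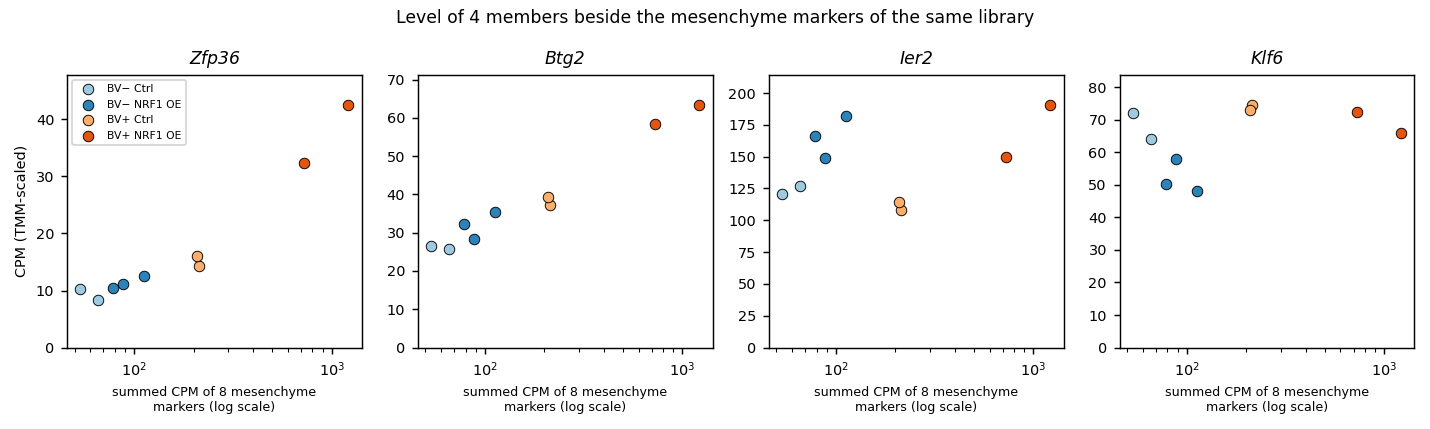
Level of 4 members in TMM-scaled CPM (vertical axes, from 0) against the summed CPM of 8 mesenchyme markers in the same library (horizontal axes, log scale); each point is 1 of the 9 libraries, coloured by group. *Zfp36* and *Btg2* are highest in the 2 libraries with marker sums of 725 and 1216, while *Ier2* separates by vector and *Klf6* is lowest in BV- NRF1 OE.

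Beyond the 10 members, 40 other immediate early genes were followed, 38 of which were tested. In BV+ cells 7 rose and 1 fell with NRF1 OE, 8 of 38 against 8.02% of all genes. In BV- cells 6 rose and 1 fell, 7 of 38 against 17.2% of all genes, which is near the background. The medians over the list were 0.28 and 0.22. The smallest adjusted p-values in BV+ cells belonged to *Rhob*, an endosomal GTPase (log2 1.09, edgeR adjusted p = 0.0127), *Socs3*, which restrains cytokine signalling (1.63, adjusted p = 0.0235), and the growth arrest genes *Gadd45b* (0.85, adjusted p = 0.0343) and *Gadd45g* (1.14, adjusted p = 0.0355). In BV- cells they belonged to *Srf* (0.49, adjusted p = 0.0317), *Irf1* (0.50, adjusted p = 0.0342), *Klf4*, which fell (-0.63, adjusted p = 0.0377), and *Klf2* (0.39, adjusted p = 0.0409). *Klf4*, a pluripotency transcription factor, was also the single gene of the list that fell in BV+ cells (-0.67, adjusted p = 0.0472), and it was named there after its value was seen. With the GC and length offsets the list gave 5 higher and 5 lower in BV+ cells and 0 higher and 3 lower in BV- cells, so the direction of this list depends on the offsets. Over all 16662 genes tested with the offsets, 2047 were called in BV+ cells and 916 in BV- cells. Between sorts 11 were higher and 4 lower in BV+ cells with NRF1 OE, 15 of 38 against 13.8% of all genes, led by *Phlda1* (2.21, adjusted p = 0.000213) and *Errfi1*, a feedback inhibitor of the EGF receptor (0.84, adjusted p = 0.00111), and 0 were called with Ctrl. Of the AP-1 genes 6 of 7 were tested. *Junb* (1.59, adjusted p = 0.0134) and *Jun* (1.01, adjusted p = 0.045) rose in BV+ cells, 2 of 6 against 8.02% of all genes. *Jund* rose in BV- cells (0.48, adjusted p = 0.04), 1 of 6 against 17.2%. With the offsets 2 AP-1 genes were called higher in BV+ cells and 0 in BV- cells. Between sorts 5 of the 6 were higher in BV+ cells with NRF1 OE and *Jund* was lower, against 13.8% of all genes called. With Ctrl 2 of the 6 were higher, *Jun* and *Fosl2*, against 1.12%.

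Of 32 paralogues and partners of the members, 31 were tested, and 3 were called between the vector labels in each sort, against 8.02% of all genes in BV+ and 17.2% in BV- cells. In BV+ cells *Mxd4*, a MAX partner that opposes MYC, rose (log2 1.13, edgeR adjusted p = 0.0134), as did the ERK phosphatase gene *Dusp5* (0.72, adjusted p = 0.047), and *Klf9* fell (-0.94, adjusted p = 0.0295). In BV- cells *Nab1*, a corepressor of the EGR factors, and *Klf9* fell (-0.83 and -0.85, adjusted p = 0.0317 for both) and *Dusp4* rose (0.39, adjusted p = 0.0445). With the GC and length offsets 1 was higher and 5 lower in BV+ cells, where 2047 of 16662 genes were called. Between sorts with NRF1 OE 5 were higher and 2 lower in BV+ cells, 7 of 31 against 13.8% of all genes, among them *Mxd4* (1.44, adjusted p = 0.00022) and *Zfp36l1*, a paralogue of *Zfp36* that also directs mRNA decay (0.95, adjusted p = 0.000263), and with Ctrl 0 were called. With the offsets 8 were higher and 6 lower between sorts with NRF1 OE, where 4094 of 16662 genes were called, against 2325 of 16903 without them. Of 25 genes of the kinase and SRF pathway that switches immediate early genes on, 1 rose in BV+ cells: *Elk3*, an ETS partner of SRF (0.89, edgeR adjusted p = 0.0128), against 8.02% of all genes. In BV- cells 6 rose and 6 fell, 12 of 25 against 17.2% of all genes, among them *Hras* (0.55, adjusted p = 0.0317), *Srf* and *Elk1* (0.53, adjusted p = 0.0328) upward, and *Elk3*, named for its rise in BV+ cells, downward (-0.53, adjusted p = 0.0371). With the offsets 1 of the 25 was called in BV- cells and 2 in BV+ cells, against 916 and 2047 of 16662 genes. Between sorts with NRF1 OE *Elk3* (1.89, adjusted p = 6.41e-06) and *Mapk8* (0.56, adjusted p = 0.0306) were higher and *Srf* lower (-0.45, adjusted p = 0.0206) in BV+ cells, 3 of 25 against 13.8%, and with the offsets 1 was higher and 4 were lower.

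Not all members moved together: 34 of their 45 pairs had a positive r over the libraries, and the lowest r was -0.69. As a summary, the mean of their standardised log2 CPM was taken in each library. It was highest in BV+ NRF1 OE, at 1.23 and 0.68 SD, then 0.23 and -0.18 in BV+ Ctrl, 0.18, -0.53 and -0.57 in BV- NRF1 OE, and -0.46 and -0.56 in BV- Ctrl. Among 9496 other genes with a mean of at least 10 CPM, those most like it over the 9 libraries were *Itga3* (Pearson r 0.983), *Speg* (0.981), *Zbtb5* (0.981), *Lmna* (0.981) and *Emilin1* (0.979). These r values describe the 9 libraries, which share group differences and GC trends.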

How the data were processed

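Poly(A) RNA was sequenced from 9 libraries of sorted embryoid body cells. The authors trimmed reads with Cutadapt and checked them with FastQC, aligned them with HISAT2 2.0.1 to GRCm39 and counted them per gene with HTSeq 0.6.1, versions as in their processing notes. The strand setting of the counting is not given in the sources used here. The deposited tables hold, per library, raw read counts for 56691 genes, and FPKM, which the authors computed from those counts and which served here only to order genes by level. Every line named a gene.

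Counts as deposited were fitted with edgeR 4.0.16 (R 4.3.3): TMM factors (0.969 to 1.03), filterByExpr, 1 quasi-likelihood fit of all 9 libraries that modelled the 4 groups, an F test per contrast, and Benjamini-Hochberg adjustment over the 16903 genes tested of 33142 with a count. A gene was called at an adjusted p under 0.05. Log2 CPM used a prior count of 2. Intervals and SEs come from the fit. Groups and replicate numbers come from the sample titles.

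All 10 members were named. From each further list at most 4 genes per contrast were named, by the smallest adjusted p among called genes. Members and lists were chosen with earlier results of these data known. Alternatives were other scalings, DESeq2 1.42.0, other filters, fits of only the groups compared, a replicate block, offsets for GC content and length (longest transcript in GENCODE M21 on GRCm38, matched by gene ID for 16662 of 16903 genes), and leaving out each library. Added after seeing the data were fits of the Ctrl libraries with crossed or labelled numbers, and the lists with offsets or without each library. Promoters and their motifs came from RefSeq on GRCm38.p6, not the build of the counts, and no coordinates were converted.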

Additional observations from a re-analysis of the deposited data

How the results depend on the processing

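With 2 or 3 libraries a group, and a GC trend that differed between NRF1 OE and Ctrl libraries, the calls depended on single libraries and on the offsets. Over the 10 members, 5 comparisons and all alternatives, 858 values kept their direction and side of the threshold, 53 kept their direction but lost a call, 21 kept it and gained a call, and 48 changed sign. Among those 48, *Ier2* and *Klf6* in BV- cells lost their calls too, with the offsets alone and with the block and offsets together. *Zfp36* and *Btg2* were positive under every alternative in the 4 comparisons between groups, except that *Zfp36* in BV- cells with NRF1 OE was -0.0040 with the GC and length offsets. The cause of the changes below was not tested.

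In this paragraph the number of all genes called stands in brackets. The number of members called in BV+ cells with NRF1 OE was 3 (1355), and 5 with no filter (3440). In BV- cells it was 2 (2910), 1 with library size alone (3141) and 1 with DESeq2 on each pair of groups (2408). It was 0 with only the groups compared (0), with the GC and length offsets (916), and with the block and offsets together (2). Between BV+ and BV- cells with Ctrl it was 0 (190). There it was 2 with DESeq2 on each pair (447), 2 with no filter (529), 3 with only the groups compared (890) and 2 with the offsets (288). With NRF1 OE it was 4 (2325), and 2 with only the groups compared (1260). The interaction called 0 members under every alternative run. Where leaving out a library left a group with 1, that library was assumed to vary like the others. Leaving out each library gave 0 to 6 members in BV+ cells, 0 to 3 in BV- cells, 0 to 2 between sorts with Ctrl and 2 to 5 with NRF1 OE.

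The replicate numbers of the labels were not shown to pair libraries: deviations from the group means of same-numbered libraries correlated at -0.032 in the BV+ groups, 0.204 and 0.243 in the BV- groups, -0.104 in the Ctrl groups, and -0.138 and -0.295 in the NRF1 OE groups. A replicate block gave 0 members (and 3 genes) in BV+ cells, 0 members (and 0 genes) in BV- cells, 0 members (and 121 genes) between sorts with Ctrl and 2 members (and 1064 genes) with NRF1 OE. In the 4 Ctrl libraries alone, a replicate block gave 3 members and 823 genes with the labelled numbers, and 3 members and 2079 genes with crossed numbers.

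Signs changed as follows, as log2 fold changes. With the offsets, *Klf6* was 0.16 in BV+ cells, *Egr1* was -0.20, *Ier2* -0.060, *Ier3* -0.11, *Atf3* -0.042, *Dusp1* -0.0063 and *Klf6* 0.025 in BV- cells, and *Myc* was 0.033 between sorts with NRF1 OE. With the replicate block and offsets together, *Klf6* was 0.16 in BV+ cells, *Egr1* -0.037, *Ier2* -0.064 and *Klf6* 0.068 in BV- cells, and *Myc* 0.26 between sorts with NRF1 OE. With the replicate block alone, *Egr2* was 0.13 in BV- cells, *Myc* 0.21 between sorts with NRF1 OE and *Dusp1* -0.0046 in the interaction. Between sorts with NRF1 OE, *Ier2* was -0.0018 with upper-quartile factors, and *Myc* 0.012 with library size alone, 0.023 with a mean of at least 10 counts and 0.022 with only the groups compared. *Egr2* was 0.015 in the interaction with a mean of at least 10 counts. Leaving out each library, *Egr2* ran from -0.43 to 0.41 in BV+ cells. In BV- cells *Egr1* ran from -0.15 to 0.26, *Egr2* from -0.40 to 0.58, *Ier3* from -0.048 to 0.45 and *Atf3* from -0.24 to 0.42. Between sorts with Ctrl *Ier3* ran from -0.14 to 0.38, *Atf3* from -0.080 to 0.64 and *Dusp1* from -0.0057 to 0.25, and with NRF1 OE *Ier2* from -0.14 to 0.20 and *Myc* from -0.17 to 0.22. In the interaction *Egr2* ran from -0.59 to 0.42, *Ier3* from -0.10 to 0.45, *Dusp1* from -0.044 to 0.21 and *Myc* from -0.095 to 0.27.

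Counts over all genes that moved by over 1.5 times were, in BV+ cells, 1355 against 2106 with DESeq2 on all libraries, 3321 with DESeq2 on each pair, 3440 with no filter, 4371 with only the groups compared, 2047 with the offsets and 872 with the block and offsets, and 0 to 4957 leaving out each library. In BV- cells 2910 stood against 4392 with no filter, 0 with only the groups compared, 916 with the offsets and 2 with the block and offsets, and 0 to 5847 leaving out each library. Between sorts with Ctrl 190 stood against 303 and 447 with DESeq2 on all libraries and on each pair, 529 with no filter, 890 with only the groups compared, 288 with the offsets and 31 to 484 leaving out each library. With NRF1 OE 2325 stood against 1297 with DESeq2 on each pair, 1260 with only the groups compared, 4094 with the offsets and 786 to 3182 leaving out each library. The interaction gave 0 genes against 23 with DESeq2 on all libraries, 108 with no filter, 1 with the block and offsets, and 0 to 33 leaving out each library.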
